A study of Arabidopsis thaliana with 4 samples.

Results

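The mitochondria-encoded genes of Arabidopsis thaliana were followed in first leaves of a hybrid and of its inbred parent. They were taken as every locus whose identifier starts with ATMG, whatever its level, which gave 146 of the 34133 loci measured. The hybrid is named Col-0xAk-1 and was set against the accession Ak-1, with 2 RNA-seq libraries each. All plants were grown for 14 days on Murashige and Skoog plates with 1% sucrose, and carried no transgene or treatment named in the labels. The genotype label writes Aa-0 and the design text Ak-0 where titles and strain write Ak-1, so Ak-1 is used here. The labels do not say which parent was the mother, how many plants went into a library, or whether replicates were separate plants, so the p-values rest on the spread among 4 libraries, and that spread may be technical.

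Plant mitochondria keep a small genome that encodes a few subunits of the respiratory chain and of ATP synthase, proteins that attach heme to cytochromes c, some ribosomal proteins, and ribosomal and transfer RNAs. Nuclear genes encode most other mitochondrial proteins, including the RNA polymerases that transcribe the organelle genome. Each respiratory complex but complex II is built from both genomes. Mitochondria usually pass through the mother. Plant mitochondrial transcripts carry no stable poly(A) tail, a tail there marks RNA for decay, and TruSeq RNA kits of the kind named in the labels select poly(A) RNA, so such libraries hold only part of the mitochondrial RNA. The nuclear genome of Col-0, the reference accession, also holds a large recent copy of mitochondrial DNA on chromosome 2, whose transcripts cannot be told from mitochondrial ones by most short reads.

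Levels are FPKM, fragments per kilobase of transcript at a common number of mapped fragments, as the authors normalized them. How many fragments each library held is unknown. From the step size of low values the relative depth was 1.35 and 1.17 for hybrid replicates 1 and 2 and 1 and 1.13 for Ak-1 replicates 1 and 2. FPKM over all loci summed to 714890 to 741307 per library. The hybrid libraries stood further apart than the Ak-1 libraries, with 74 of 15905 loci differing by over 4-fold between the hybrid pair and 0 between the Ak-1 pair on the log2(FPKM + 1) scale, so results are also given without each library where that changes them. The 6 leaf mesophyll markers summed to 43820 and 37681 FPKM in the hybrid and to 32687 and 34683 FPKM in Ak-1. The 4 root markers reached at most 0.23 FPKM in any library, and among 4 shoot apex markers WUS and CLV3 were at 0 in every library. The 4 flower markers summed to 0.93 and 0.95 FPKM in the hybrid and to 2.59 and 2.12 FPKM in Ak-1, and the part of that difference in the results was not tested.

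The mitochondrial loci together had lower FPKM in hybrid leaves than in Ak-1 leaves. The 146 loci summed to 581 and 774 FPKM in the hybrid libraries, 678 ± 137 (SD, n = 2), against 1177 and 1084 FPKM in the Ak-1 libraries, 1130 ± 66.1 (SD, n = 2), a ratio of means of 0.599. The groups did not overlap. In bulk leaf RNA, fewer cells of a type and less RNA per cell cannot be told apart.

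The loci ATMG01390 and ATMG00020 held most of that sum, 86.7% and 90.9% of it in the hybrid and 84.3% and 80.2% in Ak-1. The annotation used here gives neither a product, and whether either is a ribosomal RNA locus was not examined. ATMG01390 had 336 and 500 FPKM in the hybrid and 729 and 647 FPKM in Ak-1, without overlap of the groups (difference of log2(FPKM + 1), hybrid minus Ak-1, -0.74, SE 0.23, limma adjusted p = 0.172). ATMG00020 had 168 and 204 FPKM in the hybrid and 263 and 222 FPKM in Ak-1 (-0.39, SE 0.18, limma adjusted p = 0.316), so for neither was the difference past the threshold of 0.05. The other 144 loci together had 77.4 and 70.3 FPKM in the hybrid against 184 and 215 FPKM in Ak-1, a ratio of means of 0.370, so the remainder stood further apart between the groups than the pair of high loci.

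**Figure D1:**
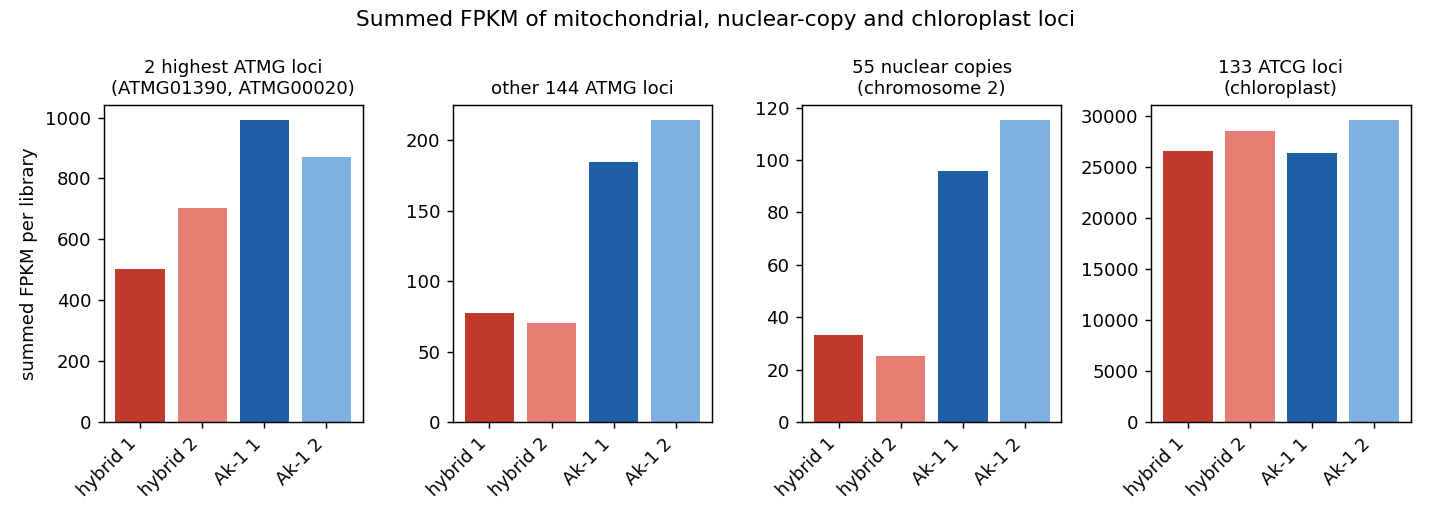
Summed FPKM per library (bars from 0, 1 bar per library) of ATMG01390 with ATMG00020, of the other 144 ATMG loci, of 55 nuclear loci whose annotation names an ATMG locus, and of the 133 chloroplast-encoded ATCG loci. Both hybrid bars are below both Ak-1 bars in the first 3 panels and overlap them in the chloroplast panel.

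The chloroplast genome, the other organelle genome of the leaf, showed no such difference in its sum. Its 133 loci had 26566 and 28464 FPKM in the hybrid and 26323 and 29603 FPKM in Ak-1, so the groups overlapped. A nuclear ribosomal RNA locus, AT3G41768, had 1670 and 4446 FPKM in the hybrid against 10547 and 7145 FPKM in Ak-1. Its order over the libraries was that of the mitochondrial sum, lowest in hybrid replicate 1 and highest in Ak-1 replicate 1, and the part of ribosomal RNA carry-over or RNA quality in the mitochondrial difference was not tested.

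Of the 146 loci, 38 were listed at 0 in all libraries and 72 had a mean above 0 but under 1 FPKM. The 36 that averaged 1 FPKM or more entered the test, a limma fit on log2(FPKM + 1) over all 15905 loci past that filter, with Benjamini-Hochberg adjustment over all of them. Just inside the filter lay ATMG00520, with 0.59 and 0.47 FPKM in the hybrid and 1.67 and 1.35 FPKM in Ak-1, and just outside it ATMG00810, with 0.44 and 0.22 FPKM in the hybrid and 1.27 and 1.89 FPKM in Ak-1.

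Among the 36 tested loci 13 fell in the hybrid and 0 rose, while of all tested loci 4.13% were called, 2.51% as falls and 1.62% as rises. At an unadjusted p under 0.05, 26 of the 36 were lower and 0 higher, beside 12.6% of all tested loci lower. The median difference of the 36 was -0.91 on the log2(FPKM + 1) scale, beside -0.06 over all tested loci, and 33 of the 36 differences were negative, beside 57.8% of all. Both hybrid libraries were below both Ak-1 libraries at 30 of the 36, both were above at 1 and the groups overlapped at 5, where among all tested loci 32.6% were lower and 20.5% higher without overlap. When either Ak-1 library was left out, the hybrid pair alone set the spread, the lone Ak-1 library was assumed to vary like it, and the count of falls was 0 (20 at an unadjusted p under 0.05 in both cases). Without hybrid replicate 1 it was 14 and without hybrid replicate 2 it was 9. With no filter on low values 8 of 108 loci fell, 6 of them among the 13, beside 173 of all 24073 loci then tested. The calls of ATMG01190, ATMG00560, ATMG01370, ATMG00690, ATMG01360, ATMG00090 and ATMG00160 were lost, and ATMG00290 and ATMG00500 were called. Of the 9 loci averaging 5 FPKM or more, 3 fell, beside 206 of all 10836 such loci. Leaving out an Ak-1 library ended nearly all calls over all tested loci as well. The median difference of the 36 was then -0.93 without Ak-1 replicate 1 and -0.98 without Ak-1 replicate 2, beside -0.02 and -0.09 over all tested loci. Without hybrid replicate 1 or 2 it was -0.99 or -1.08, beside -0.03 or -0.08.

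**Figure D2:**
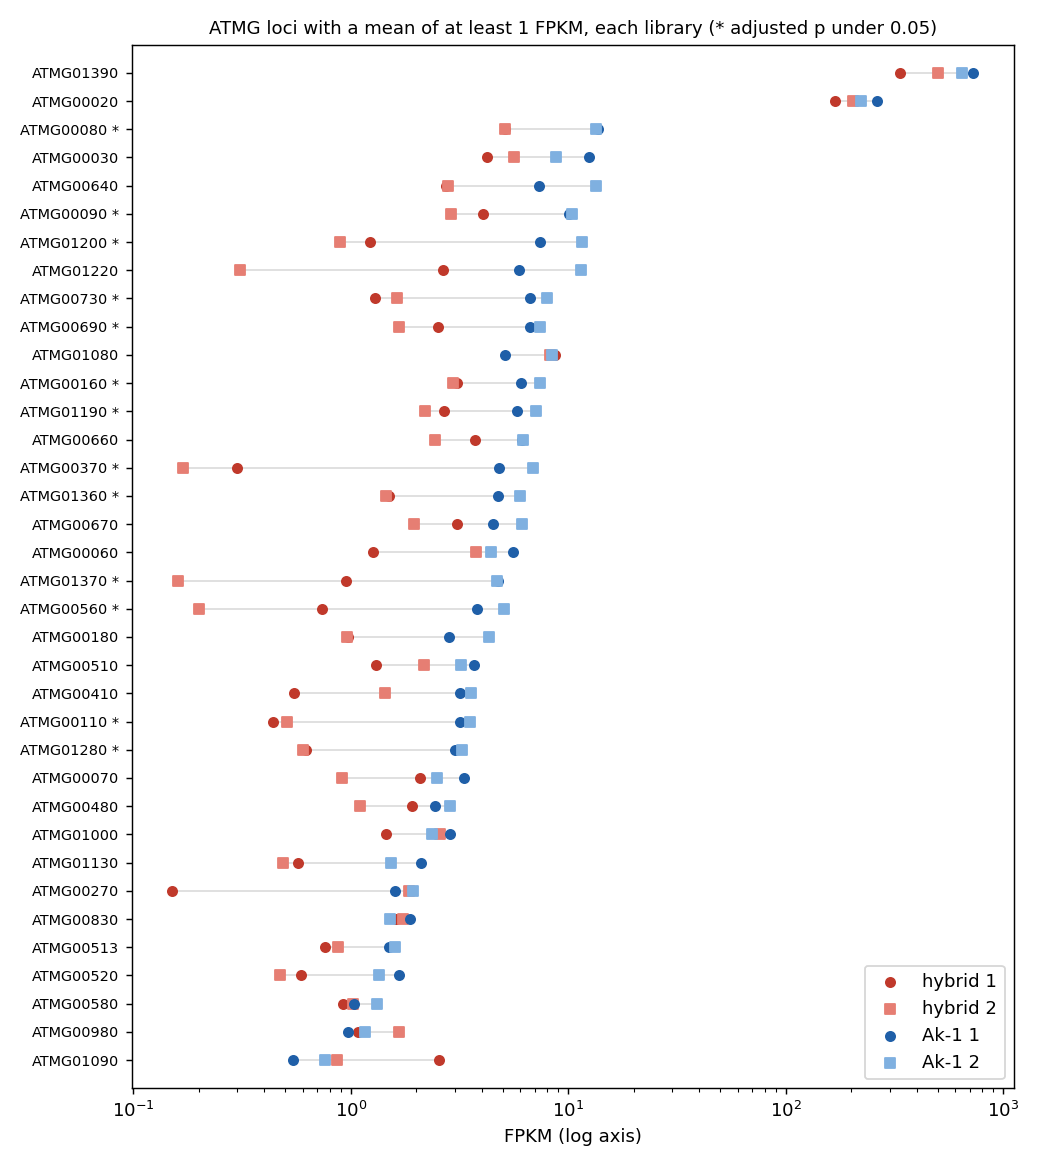
FPKM (log axis) of the 36 ATMG loci that averaged 1 FPKM or more, ordered by their Ak-1 mean, with 1 point for each library of the hybrid (red) and of Ak-1 (blue); an asterisk marks an adjusted p under 0.05. Blue points lie to the right of red points at 30 of the 36 loci, while at ATMG01080 and ATMG00980 they do not.

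Product names were taken from the reference annotation, which describes 55 nuclear loci on chromosome 2 by the ATMG locus they resemble and so names a product for 25 ATMG loci. Other ATMG loci are given by identifier only, so the loci named for a complex or role below may be only some of its members.

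Complex I, the NADH dehydrogenase that starts the respiratory chain, had 3 subunits named by that annotation, all under the filter. Whether tested loci without a product name belong to complex I was not examined. NADH dehydrogenase 1A (ATMG01275) had 0 and 0.27 FPKM in the hybrid against 0.95 and 0.99 FPKM in Ak-1. NADH dehydrogenase 3 (ATMG00990) had 0.13 and 0.15 FPKM in the hybrid against 0.51 and 0.76 FPKM in Ak-1. NADH dehydrogenase 2B (ATMG01320) had 0.35 and 0.40 FPKM in the hybrid against 0.60 and 0.53 FPKM in Ak-1. At all 3 both hybrid libraries were below both Ak-1 libraries, with the smallest gap at ATMG01320. No test was made at these levels.

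Apocytochrome b (ATMG00220), the core subunit of complex III that passes electrons from ubiquinol to cytochrome c, had 0.08 and 0.75 FPKM in the hybrid and 0.62 and 1.11 FPKM in Ak-1. The hybrid libraries were far apart and the groups overlapped. ATMG00590, annotated as a cytochrome b/b6 protein, had 0.58 and 0.50 FPKM in the hybrid and 0.91 and 1.27 FPKM in Ak-1, with no overlap.

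Complex IV, cytochrome c oxidase, which reduces oxygen at the end of the chain, had 2 tested loci named by that annotation, and both fell. Its subunit 3 (ATMG00730), a membrane protein next to the catalytic core, had 1.29 and 1.63 FPKM in the hybrid against 6.70 and 8.0 FPKM in Ak-1 (log2 difference -1.76, SE 0.17, limma adjusted p = 0.0111). ATMG01280, annotated as the membrane domain of a subunit II-like protein, had 0.62 and 0.60 FPKM in the hybrid against 3.01 and 3.24 FPKM in Ak-1 (-1.36, SE 0.16, limma adjusted p = 0.0197). In both loci each group's libraries lay close together and the groups were well apart.

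ATP synthase, which makes ATP from the proton gradient, had members on both sides of 0. Subunit 1 (ATMG01190), the alpha subunit of the catalytic head, had 2.69 and 2.20 FPKM in the hybrid against 5.80 and 7.13 FPKM in Ak-1 (log2 difference -1.11, SE 0.17, limma adjusted p = 0.0347). That call was lost with median-of-ratios scaling (limma adjusted p = 0.0527) and with quantile normalization (0.0517). It was also lost without hybrid replicate 2 and without either Ak-1 library. The lowest limma adjusted p over the alternatives, 0.0116, was that of its sum with the nuclear copy described further on, not of the locus alone. Subunit 6 (ATMG00410 in the annotation, ATPase subunit 6-1), part of the proton channel, had 0.55 and 1.43 FPKM in the hybrid against 3.16 and 3.55 FPKM in Ak-1, apart but not past the threshold (-1.16, SE 0.26, limma adjusted p = 0.0878). Without hybrid replicate 2 it was called (limma adjusted p = 0.0351, within a range of 0.0351 to 0.475 over the alternatives). Subunit 8 (ATMG00480), a small membrane subunit, had 1.91 and 1.10 FPKM in the hybrid against 2.44 and 2.86 FPKM in Ak-1 (-0.56, SE 0.22, limma adjusted p = 0.246).

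Subunit 9 (ATMG01080), which forms the rotating membrane ring, was not lower in the hybrid at its own locus. It had 8.67 and 8.20 FPKM in the hybrid and 5.11 and 8.45 FPKM in Ak-1, with overlap of the groups (log2 difference 0.31, SE 0.23, limma adjusted p = 0.529). Its sign rests on Ak-1 replicate 1, without which the difference was -0.0027, and it turned to -0.99 when the nuclear copy described further on was added. By level within a library it ranked 3 in both hybrid libraries and 15 and 9 in the Ak-1 libraries among the 146 loci. Leaving out ATMG01390 and ATMG00020, it made up 11.2% and 11.7% of mitochondrial FPKM in the hybrid and 2.77% and 3.94% in Ak-1. ATMG01090, also annotated as an ATP synthase 9, had 2.54 and 0.86 FPKM in the hybrid and 0.54 and 0.76 FPKM in Ak-1, the only tested locus with both hybrid libraries above both Ak-1 libraries (0.64, SE 0.34, limma adjusted p = 0.373). Its hybrid libraries differed more from each other than hybrid replicate 2 did from Ak-1.

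The cytochrome c maturation proteins insert heme into cytochromes. ATMG00180, annotated as a cytochrome C biogenesis protein, had 0.97 and 0.96 FPKM in the hybrid against 2.84 and 4.34 FPKM in Ak-1 (log2 difference -1.20, SE 0.21, limma adjusted p = 0.0511). It was past the threshold with a pseudocount of 0.1 (limma adjusted p = 0.0469) and with no mean-variance trend (0.0441), in a range of 0.0441 to 0.350. ATMG00960, a cytochrome C assembly protein, had 0.15 and 0 FPKM in the hybrid against 0.50 and 0.62 FPKM in Ak-1, and ATMG00900, another cytochrome C biogenesis protein, reached at most 0.16 FPKM in any library.

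The loci that this annotation names as ribosomal proteins of the organelle's own translation machinery did not move alike, each taken without its nuclear copy. Whether other tested loci encode ribosomal proteins was not examined. Protein L5 (ATMG00210), of the large subunit, had 0.33 and 0.09 FPKM in the hybrid against 1.54 and 1.17 FPKM in Ak-1. Protein S4 (ATMG00290), of the small subunit, had 0.17 and 0.10 FPKM in the hybrid against 1.46 and 1.70 FPKM in Ak-1. For both, the groups were apart, at levels under the filter. ATMG01270, protein S7, had 0.31 and 0.23 FPKM in the hybrid and 0.27 and 0.24 FPKM in Ak-1, so the groups overlapped at its own locus. Its nuclear copy AT2G07696, of the kind described further on, fell (log2 difference -1.35, SE 0.17, limma adjusted p = 0.022). With that copy added, S7 had 0.64 and 0.54 FPKM in the hybrid against 2.63 and 2.60 FPKM in Ak-1. Protein S12 (ATMG00980), which helps form the decoding site, had 1.08 and 1.66 FPKM in the hybrid and 0.97 and 1.16 FPKM in Ak-1, also with overlap (log2 difference 0.19, SE 0.21, limma adjusted p = 0.669).

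Some annotated loci have a product name that gives none of the complexes or roles above. Of these, ATMG00560, described as a nucleic acid-binding OB-fold-like protein, had 0.74 and 0.20 FPKM in the hybrid against 3.8 and 5.04 FPKM in Ak-1 (log2 difference -1.90, SE 0.25, limma adjusted p = 0.0245). Its call was lost with a pseudocount of 0.1 (limma adjusted p = 0.0516) and with no filter on low values (0.0648), in a range of 0.0157 to 0.235. ATMG00370, annotated by a match to the chloroplast protein family Ycf1, had the widest called difference, 0.30 and 0.17 FPKM in the hybrid against 4.81 and 6.91 FPKM in Ak-1 (-2.46, SE 0.21, limma adjusted p = 0.00910). ATMG01110, related to the RNA polymerases of mitochondrial viruses, had 0.12 and 0 FPKM in the hybrid against 0.73 and 0.94 FPKM in Ak-1, and ATMG00610, a putative membrane lipoprotein, had 0.37 and 0.11 FPKM in the hybrid against 1.26 and 1.91 FPKM in Ak-1. ATMG01010, a conserved protein of unknown function, had 0.13 and 0.15 FPKM in the hybrid against 0.34 and 0.61 FPKM in Ak-1, while ATMG00280, with a match to the large chain of Rubisco, was above 0 only in Ak-1 replicate 1.

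Of the 13 falls, 8 were at loci to which the annotation used here gives no product, so their roles were not examined. The widest were ATMG01200, with 1.23 and 0.89 FPKM in the hybrid against 7.42 and 11.6 FPKM in Ak-1 (log2 difference -2.33, SE 0.24, limma adjusted p = 0.0131), and ATMG01370, with 0.95 and 0.16 FPKM in the hybrid against 4.75 and 4.71 FPKM in Ak-1 (-1.93, SE 0.28, limma adjusted p = 0.0310). Without hybrid replicate 2 the call of ATMG01200 was lost (limma adjusted p = 0.0545, in a range of 0.0110 to 0.129), and that of ATMG01370 was lost with a pseudocount of 0.1 (0.0826, in a range of 0.0145 to 0.253). ATMG00110 had 0.44 and 0.51 FPKM in the hybrid against 3.16 and 3.52 FPKM in Ak-1 (-1.56, SE 0.17, limma adjusted p = 0.0148). ATMG00690 and ATMG01360 fell by 1.39 and 1.36 on that scale (limma adjusted p = 0.0263 and 0.0205), and without hybrid replicate 2 both calls were lost (0.0506, in a range of 0.0238 to 0.264, and 0.0591, in a range of 0.0186 to 0.235).

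After the leading pair, the highest loci without a product in the annotation used here were ATMG00080, ATMG00030 and ATMG00090. ATMG00080 had 5.14 and 5.13 FPKM in the hybrid against 13.8 and 13.4 FPKM in Ak-1, with the smallest SE of the 13 falls (log2 difference -1.25, SE 0.13, limma adjusted p = 0.0131). ATMG00090 had 4.06 and 2.88 FPKM in the hybrid against 10.02 and 10.39 FPKM in Ak-1 (-1.34, SE 0.18, limma adjusted p = 0.0242). ATMG00030 had 4.22 and 5.65 FPKM in the hybrid against 12.5 and 8.76 FPKM in Ak-1, apart but not called (-0.96, SE 0.22, limma adjusted p = 0.0954). The last fall, at ATMG00160, was outside the naming rule and was picked after its values were seen, with 3.08 and 2.94 FPKM in the hybrid against 6.03 and 7.39 FPKM in Ak-1 (-0.94, SE 0.16, limma adjusted p = 0.0434). The ATMG00160 call was lost with median-of-ratios scaling (limma adjusted p = 0.0650), with quantile normalization (0.0660) and without either hybrid library (0.0639 and 0.103), in a range of 0.0430 to 0.384.

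Over the 72 loci with a mean above 0 and under 1 FPKM, most of which rest on few fragments, both hybrid libraries were below both Ak-1 libraries at 41, above at 3 and overlapping at 28. Of all 8168 loci at that level 16.3% were lower and 15.9% higher in the hybrid without overlap. Across all 146 loci, 13 were above 0 in both Ak-1 libraries and listed at 0 in both hybrid libraries, and 1 showed the reverse, where among all 34133 loci 0.7% showed the first pattern and 1.47% the reverse. Loci above 0 numbered 81 and 63 in the hybrid libraries and 90 and 93 in the Ak-1 libraries, although the relative depth of the hybrid libraries was not lower.

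The division of FPKM between mitochondria and nucleus was examined through the 55 nuclear loci, all on chromosome 2, that name 53 ATMG loci. In the TAIR10.1 assembly 52 of the 55 matched the mitochondrial genome over at least 90% of their length at 98% identity or more. Of 49 mitochondrial coding segments of at least 100 bases there, 37 had a nuclear match of that kind, all on chromosome 2 and none under 99.6% identity. Reads of these members and their copies are therefore uncertain in origin, and whether Ak-1 carries the insertion was not analysed here.

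The nuclear copies differed between the groups in the same direction as the mitochondrial loci. Together they had 33.3 and 25.3 FPKM in the hybrid and 95.8 and 115 FPKM in Ak-1, a ratio of means of 0.278. Of the 18 copies tested 9 fell and 0 rose (17 and 0 at an unadjusted p under 0.05), beside 2.51% and 1.62% of all tested loci. ATMG loci without a named copy summed to 552 and 751 FPKM in the hybrid and to 1115 and 1003 FPKM in Ak-1. Their ratio of means was 0.616. Most of that sum was ATMG01390 and ATMG00020, with 503 and 704 FPKM in the hybrid and 993 and 869 FPKM in Ak-1. The ratio of means for that pair was 0.649. ATMG loci with a named copy summed to 28.4 and 23.0 FPKM in the hybrid and to 61.8 and 80.8 FPKM in Ak-1, a ratio of 0.360. The ratios 0.616 and 0.360 were not compared, since the pair of high loci weighs on the first alone. Without Ak-1 replicate 1 or 2 the count of falls among copies was 0, without hybrid replicate 1 it was 10 and without hybrid replicate 2 it was 6. With no filter on low values 5 of 45 copies fell, beside 173 of all 24073 loci then tested. Both of the 2 copies averaging 5 FPKM or more fell, beside 206 of all 10836 such loci.

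Each ATMG locus was then added to its copies, which gave 26 sums averaging 1 FPKM or more. FPKM are scaled to transcript length and the loci differ in length, so a share of such a sum is not a share of reads. Both hybrid libraries were below both Ak-1 libraries at 25 of them and above at 1, that of ATMG01090, beside 32.6% lower and 20.5% higher among all tested loci. For subunit 9 of ATP synthase the copy AT2G07671 alone had 9.63 and 9.08 FPKM in the hybrid against 24.2 and 36.5 FPKM in Ak-1 and fell (log2 difference -1.57, SE 0.22, limma adjusted p = 0.0285). The sum of ATMG01080 and AT2G07671 was 18.3 and 17.3 FPKM in the hybrid and 29.3 and 44.9 FPKM in Ak-1, so with the copy added the sign turned (-0.99, SE 0.23, limma adjusted p = 0.0944). The mitochondrial locus held 47.4% and 47.5% of that sum in the hybrid and 17.4% and 18.8% in Ak-1.

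A similar shift of the division was seen for ATP synthase subunit 1, where ATMG01190 held 52.3% and 50.1% of its sum with AT2G07698 in the hybrid and 33.4% and 31.2% in Ak-1. Its summed level was 5.14 and 4.39 FPKM in the hybrid against 17.4 and 22.9 FPKM in Ak-1 (log2 difference -1.86, SE 0.18, limma adjusted p = 0.0116), a wider gap than at the mitochondrial locus alone. Cytochrome c oxidase subunit 3 showed a fall without such a shift, with ATMG00730 at 63.9% and 54.5% of its sum with AT2G07687 in the hybrid and at 55.9% and 61.1% in Ak-1 (sum -1.96, SE 0.18, limma adjusted p = 0.0107). Over the 26 sums the mitochondrial share was higher in the hybrid without overlap at 6, lower at 8 and overlapping at 12, so no single direction of division held. For protein S12 the sum of ATMG00980 and AT2G07675 was 3.37 and 4.29 FPKM in the hybrid and 4.38 and 4.34 FPKM in Ak-1, nearly level, and its sign too turned with the copy added (-0.16, SE 0.16, limma adjusted p = 0.649).

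**Figure D3:**
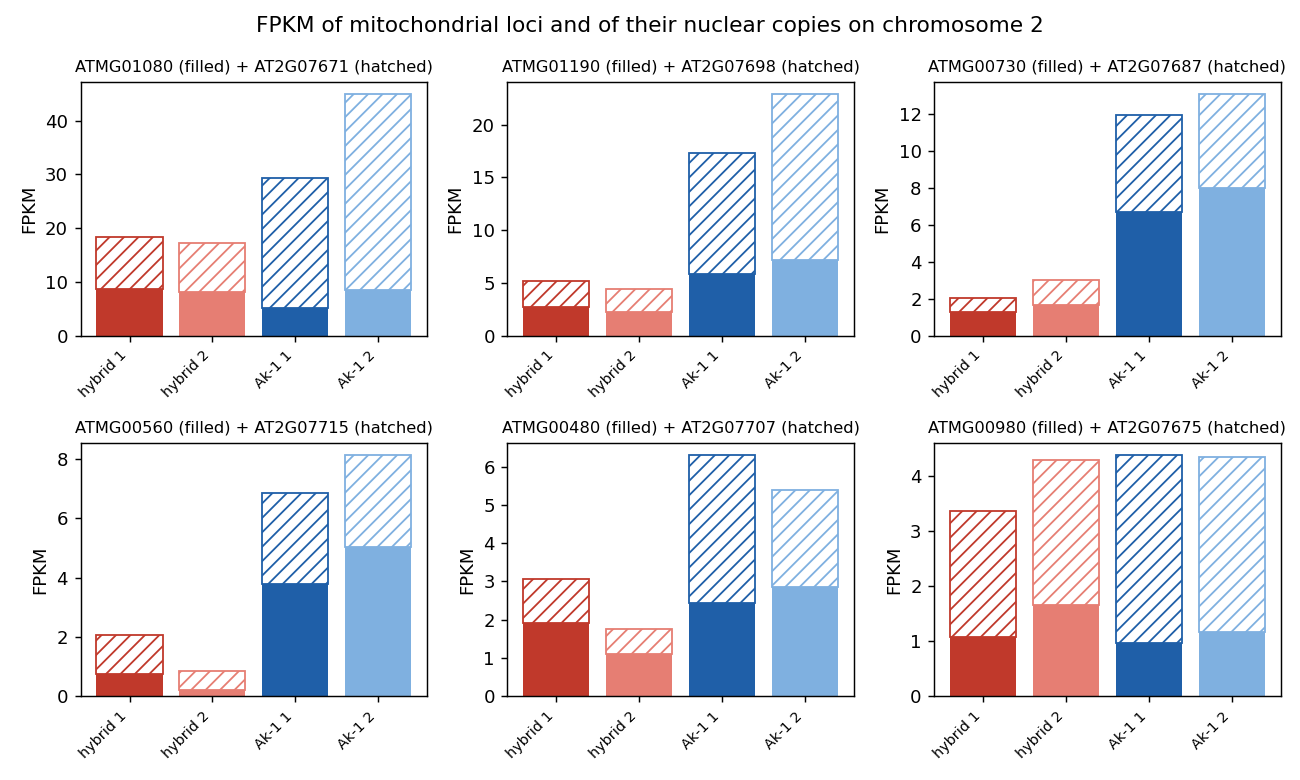
FPKM of 6 ATMG loci (filled) stacked on 0 with that of the nuclear copy named in the annotation (hatched), 1 bar per library: ATP synthase subunits 9, 1 and 8 (ATMG01080, ATMG01190, ATMG00480), cytochrome c oxidase subunit 3 (ATMG00730), the OB-fold-like protein (ATMG00560) and ribosomal protein S12 (ATMG00980). Total bars of both hybrid libraries are lower than both Ak-1 bars in each panel, by little for ATMG00980.

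The nuclear genes that build the same complexes were compared from 8 lists of 95 genes, of which 80 were tested. By limma 1 fell and 0 rose (8 and 3 at an unadjusted p under 0.05), beside 2.51% and 1.62% of all tested loci, and their median difference was -0.04 on the log2(FPKM + 1) scale, or 0.0060 with median-of-ratios scaling. The 95 genes summed to 3267 and 3615 FPKM in the hybrid and to 3685 and 3379 FPKM in Ak-1, with overlap of the groups. The count of falls was 0 without Ak-1 replicate 1, Ak-1 replicate 2 or hybrid replicate 2 and 2 without hybrid replicate 1, where 2 also rose.

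By complex, none of 13 nuclear complex I subunits was called (0 at an unadjusted p under 0.05 in either direction; median -0.02), and GAMMA CAL1, of the carbonic anhydrase domain, was nearest to the threshold with 31.0 and 29.2 FPKM in the hybrid and 36.4 and 34.3 FPKM in Ak-1 (limma adjusted p = 0.427). None of 7 tested subunits of complex II, the succinate dehydrogenase made wholly from nuclear genes, was called (2 lower and 0 higher at an unadjusted p under 0.05); SDH2-2, an iron-sulfur subunit, had 10.4 and 7.53 FPKM in the hybrid and 17.1 and 16.1 FPKM in Ak-1 (limma adjusted p = 0.0871, but 0.0365 without hybrid replicate 1, in a range of 0.0365 to 0.516). Among 12 genes of complex III and cytochrome c the fall was in AT5G25450, a small complex III subunit, with 0.57 and 0.71 FPKM in the hybrid against 2.85 and 4.38 FPKM in Ak-1 (log2 difference -1.47, SE 0.22, limma adjusted p = 0.0337), a call lost without either hybrid library (0.0614 and 0.0771, in a range of 0.0287 to 0.266). AT5G25450 has a far higher sister gene, AT4G32470, picked after its values were seen, at 138 and 135 FPKM in the hybrid and 133 and 130 FPKM in Ak-1.

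Complex IV had 0 of 11 genes called (3 lower and 1 higher at an unadjusted p under 0.05), with HCC1, a copper chaperone, at 1.97 and 2.22 FPKM in the hybrid and 3.72 and 3.15 FPKM in Ak-1 (limma adjusted p = 0.171). ATP synthase had 0 of 9 called (0 at an unadjusted p under 0.05), with AT3G46430 at 38.8 and 38.7 FPKM in the hybrid and 44.3 and 52.2 FPKM in Ak-1 (limma adjusted p = 0.338). In the bypass of the main chain by alternative oxidases and NAD(P)H dehydrogenases 0 of 7 tested genes were called (2 lower and 1 higher at an unadjusted p under 0.05), and NDA2, an internal dehydrogenase, had 4.50 and 3.17 FPKM in the hybrid and 5.89 and 6.34 FPKM in Ak-1 (limma adjusted p = 0.181).

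Nuclear genes that transcribe and process mitochondrial RNA had 0 of 14 tested members called (0 at an unadjusted p under 0.05), with a median of -0.03. The one nearest to the threshold was MEF1, an RNA editing factor, with 0.93 and 0.77 FPKM in the hybrid and 1.60 and 1.45 FPKM in Ak-1 (limma adjusted p = 0.249). Of 7 genes that maintain mitochondrial DNA 0 were called (0 lower and 1 higher at an unadjusted p under 0.05); OSB1, a single-strand DNA-binding protein, had 1.13 and 3.08 FPKM in the hybrid and 0.70 and 0.39 FPKM in Ak-1 (limma adjusted p = 0.229, but 0.0382 without hybrid replicate 1, in a range of 0.0382 to 0.691). The difference between the mitochondrial loci and these nuclear lists was not itself tested, and chloroplast-encoded loci had 4 falls and 2 rises among 74 tested, beside 2.51% and 1.62% of all tested loci.

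**Figure D4:**
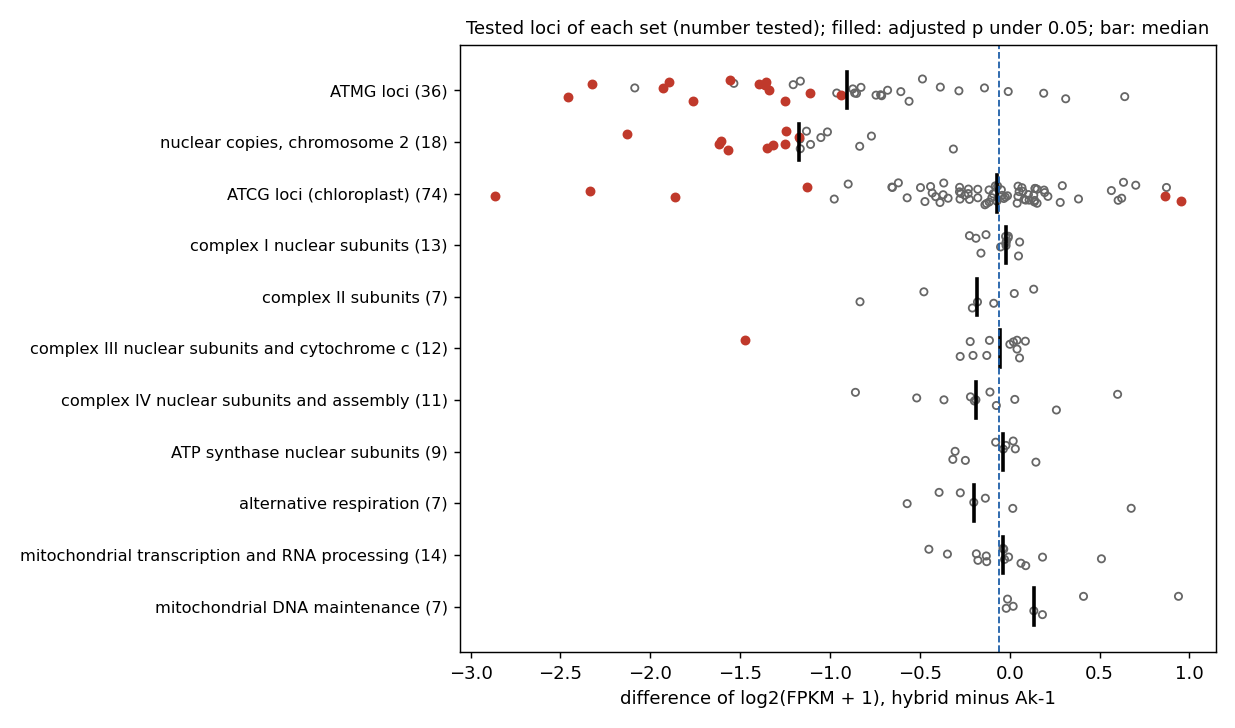
Difference of log2(FPKM + 1), hybrid minus Ak-1, of each tested locus (points) in the mitochondrial, nuclear-copy, chloroplast and nuclear lists; filled points have an adjusted p under 0.05, black bars are medians, and the dashed line is the median of all tested loci at -0.06. The medians of ATMG loci (-0.91) and nuclear copies (-1.17) lie left of the line, and those of the 8 nuclear lists lie between -0.20 and 0.13.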

How the data were processed

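Per the labels' protocols, total RNA of first leaves was made into unstranded libraries (TruSeq RNA kit V2). The authors deposited 1 FPKM value per locus and library, rounded to 2 decimals. The submitters' processing notes list the TAIR10 build, edgeR 3.12.0, Cufflinks 2.0.2, TopHat and TopHat2 2.0.8b; their roles and the handling of multiply matching reads are not given in the sources used here. No count test was used, as FPKM hold no counts, and an exact 0 may be a failed estimate.

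Values were used as deposited. Loci averaging 1 FPKM or more were tested on log2(FPKM + 1), hybrid minus Ak-1, two-sided, with limma 3.58.1 in R 4.3.3 (eBayes with a trend, 3.18 prior and 2 residual degrees of freedom) and Benjamini-Hochberg adjustment over all 15905; this scale understates changes of low loci. Tested on simulated data of 15905 loci made for the hybrid and Ak-1, 23 of 100 loci changed by 1 on the log2 scale and 96 of 100 changed by 2 were recovered, with 9 of 15705 unchanged loci called. No ATMG identifier is in the reference gene table (TAIR10.1), so names come from the annotation's notes on nuclear loci, whose sequences were compared by blastn 2.17.0; no coordinates are printed. Named were loci with an annotated product, the 5 highest others, up to 5 called others, and per nuclear list up to 3 called genes or the one nearest to the threshold. The members and lists were chosen with earlier results of these data known. Alternatives were other pseudocounts, filters, scalings and fits, a replicate block, and each library left out.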

Additional observations from a re-analysis of the deposited data

How the results depend on the processing

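The count of mitochondrial loci that fell, 13, was 8 with no filter on low values, 3 among loci averaging 5 FPKM or more, and 0 to 14 with single libraries left out; the count of rises was 0 under all alternatives run. At 5 FPKM fewer loci were tested (9), and without an Ak-1 library the spread comes from the hybrid pair; for the other changes the cause was not tested. Falls among nuclear copies, 9, became 5 with no filter, 2 with at least 5 FPKM, 4 with the replicate block and 0 to 10 with single libraries left out. Falls among nuclear genes of mitochondrial function, 1, became 0 with no filter and 0 with at least 5 FPKM, and both falls and rises were 0 to 2 with single libraries left out. The ratio of summed mitochondrial FPKM, 0.599, was 0.370 without the 2 highest loci, chosen after seeing the data, and 0.514 to 0.685 with single libraries left out. The difference of ATMG01080, 0.31, became -0.99 and that of ATMG00980, 0.19, became -0.16 when nuclear copies were added, and that of ATMG01080 ran from -0.0027 (without Ak-1 replicate 1) to 0.63 with single libraries left out. With the replicate block 12 mitochondrial loci fell and the calls of ATMG01190 (limma adjusted p = 0.0665) and ATMG00160 (0.0786) were lost; the replicate numbers share only a number, as replicate 1 deviations correlated at -0.138 between groups, and with crossed numbers, chosen after seeing the data, 15 fell. The planned sum without ribosomal and transfer RNA loci was not run, since identifiers are not paired with those products. Depth is unknown, so no counting error could be given for low loci.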
